A study of Mus musculus with 6 samples.

Results

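The genes described here are the 34 members of a fixed list of the unfolded protein response and the integrated stress response, out of 56832 gene rows in the series. Each member was found by its symbol, all 34 matched a row, and all 34 passed the filter on low counts. They were read in RNA sequencing of blood monocytes, as the labels name the cells, from 3 libraries of thrombocytopenic mice with the genotype PF4cre-iDTR and 3 libraries of control mice with the genotype WT. The treatment listed for both genotypes is diphtheria toxin (written Diptheria Toxin in the labels). In PF4cre-iDTR mice, Cre recombinase driven by the Pf4 promoter, which is active in megakaryocytes, makes cells sensitive to that toxin by turning on its receptor. Genotype and platelet state therefore changed together and cannot be told apart, and no age, sex, toxin dose or pooling of animals is given in the labels. Whether each library is a separate mouse is not stated, and a p-value here compares the groups with the scatter of 3 libraries, which may be technical scatter.

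The endoplasmic reticulum (ER) folds secreted and membrane proteins, and the unfolded protein response adjusts its capacity through the sensors ATF6, IRE1 (gene Ern1) and PERK (gene Eif2ak3). ATF6 is cut to release a transcription factor, IRE1 splices the messenger RNA of Xbp1, and PERK phosphorylates the translation factor eIF2. PERK shares that last step with other kinases, and the resulting integrated stress response favours translation of Atf4, whose protein drives genes of amino acid supply and of feedback. Splicing of Xbp1, cleavage of ATF6 and phosphorylation of eIF2 are not visible in counts per gene, so only RNA levels are described.

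Of 14 ER chaperones and folding enzymes, 9 were lower in thrombocytopenic libraries and none was higher. Of 5 feedback and death genes of the ATF4 and CHOP branch, 4 were higher, and the RNA of Sesn2 and Trib3 was about doubled. Atf4, Atf6 and the ER degradation genes Herpud1 and Sel1l were higher as well. In all, 20 of 34 members changed (9 higher, 11 lower); the threshold was an adjusted p of 0.05 in edgeR's quasi-likelihood test over the 12488 genes with enough counts. The same test called 45.1% of all genes tested, 22.4% higher and 22.7% lower, so a member called in either direction was not unusual here. The median log2 fold change of the 34 members, thrombocytopenic over control, was -0.03, against -0.001 over all genes tested. Most changes were small, with a median absolute log2 fold change of 0.17 over the 20 called members and 0.27 over all called genes. Only Sesn2 and Trib3, 2 of the 34, were called with a fold of at least 1.5, against 9.63% of all genes tested that were called with at least that fold. For 23 of 34 members the ranges of the 3 thrombocytopenic and 3 control libraries did not overlap, which was also the case for 51.3% of all genes tested.

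**Figure D1:**
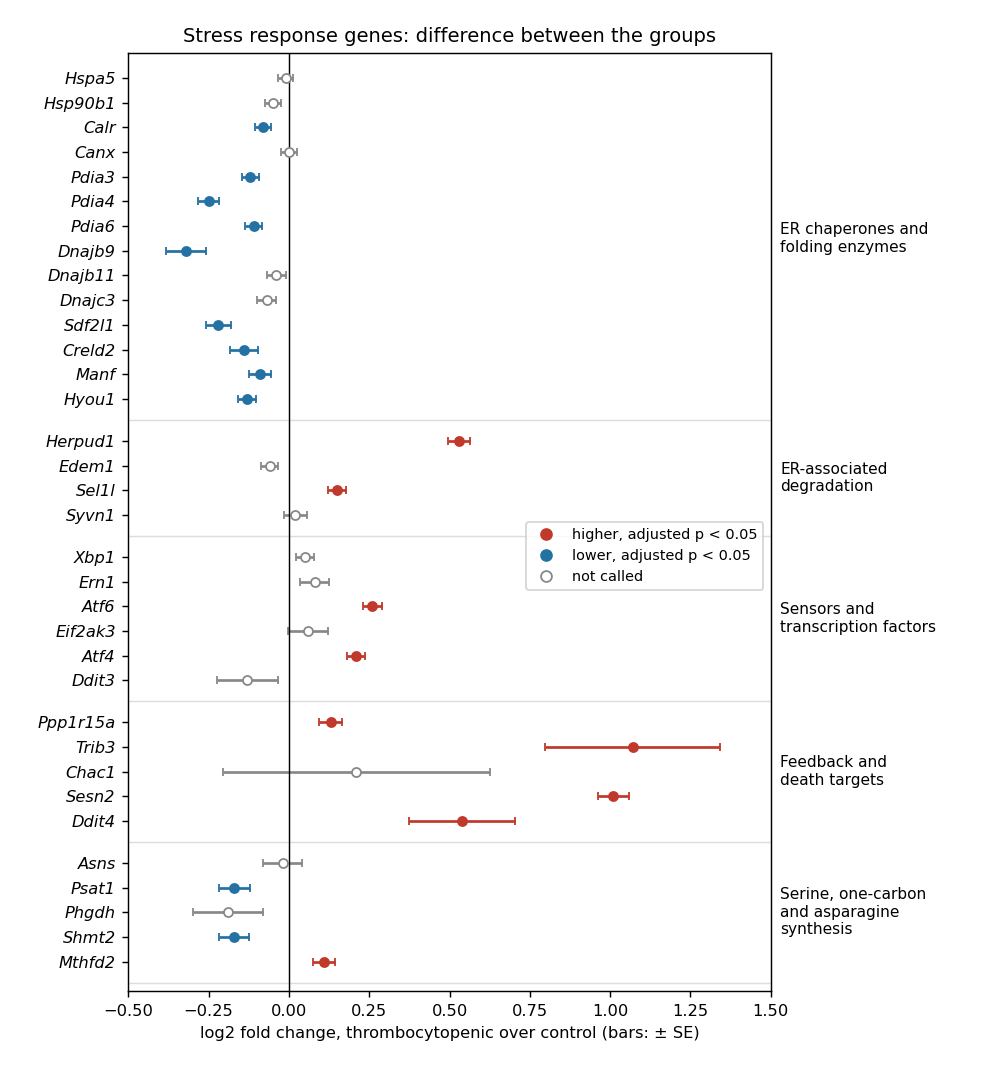
Log2 fold change (thrombocytopenic over control) of the 34 members by role, as points with standard errors, coloured by call. The chaperones lie at or left of 0, down to Dnajb9 at -0.32, while Sesn2 at 1.01 and Trib3 at 1.07 lie farthest right.

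The library totals ranged from 29883019 to 37552029 counts in the thrombocytopenic group and from 24842319 to 35955383 in the control group, and levels are given as CPM, counts scaled to the library total and its TMM factor. No library was a copy of another: pairs within a group had a chi-square of 1.87 to 3.11 per degree of freedom. The monocyte markers Csf1r, Lyz2 and Cd68 were present in every library, and the summed CPM of 12 monocyte markers was 21230 to 21422 in thrombocytopenic and 18737 to 19172 in control libraries. Of 8 platelet markers tested, Pf4 and Ppbp were higher and 5 were lower. The 5 lower genes, Itga2b, Itgb3, Gp9, Nrgn and Clec1b, had means of at most 3.69 CPM in either group. Pf4 and Ppbp made up most of the sum of 1223 to 1295 CPM in thrombocytopenic and 1013 to 1059 CPM in control libraries. Gp9 was at 0 in every thrombocytopenic library. The counts of 11 members, Shmt2 among them, can include reads of an overlapping gene, which is on the same strand for 3 of them. Pdia4 and Dnajb9 are also among the 11, but their only overlapping genes are the microRNA genes Mir704 and Mir5627. In bulk RNA, fewer cells of a type and less RNA per cell cannot be told apart.

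Promoter sequences are shown because the arms of the response are known to act through short DNA elements. Those printed belong to members that were lower (Calr, Pdia6), were higher (Herpud1, Trib3) or did not pass the test (Hspa5). The windows are RefSeq sequences of GRCm38.p6, 250 bases before to 50 bases after each gene start. A window was found for 31 of the 34 members. The elements searched, on both strands, were the ER stress element ERSE (CCAAT, then 9 bases of any kind, then CCACG), ERSE-II (ATTGG, then 1 base of any kind, then CCACG), the unfolded protein response element UPRE (TGACGTGG) and the ATF4 element CARE (TGATGNAA). Matches of different elements overlapped in 3 of 32851 windows, none of them of a member. Capitals mark the ERSE in Hspa5, Calr and Pdia6, the CARE and then the ERSE-II in Herpud1, and the CARE in Trib3; the ERSE of Calr and both CAREs read on the opposite strand.
Hspa5, chr2:34771840-34772139, plus strand: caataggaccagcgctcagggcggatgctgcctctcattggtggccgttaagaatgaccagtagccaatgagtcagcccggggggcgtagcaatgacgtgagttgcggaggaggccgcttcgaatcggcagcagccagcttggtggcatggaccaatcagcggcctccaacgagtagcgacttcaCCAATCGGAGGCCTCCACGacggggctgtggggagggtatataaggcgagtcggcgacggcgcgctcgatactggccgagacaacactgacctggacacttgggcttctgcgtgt
Calr, chr8:84846882-84847181, minus strand: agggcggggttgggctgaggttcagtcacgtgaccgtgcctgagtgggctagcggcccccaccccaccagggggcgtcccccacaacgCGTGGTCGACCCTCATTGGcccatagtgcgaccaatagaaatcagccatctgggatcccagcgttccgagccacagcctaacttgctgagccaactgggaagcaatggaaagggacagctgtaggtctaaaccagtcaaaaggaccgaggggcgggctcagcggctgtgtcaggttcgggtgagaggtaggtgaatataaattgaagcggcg
Pdia6, chr12:17266339-17266638, plus strand: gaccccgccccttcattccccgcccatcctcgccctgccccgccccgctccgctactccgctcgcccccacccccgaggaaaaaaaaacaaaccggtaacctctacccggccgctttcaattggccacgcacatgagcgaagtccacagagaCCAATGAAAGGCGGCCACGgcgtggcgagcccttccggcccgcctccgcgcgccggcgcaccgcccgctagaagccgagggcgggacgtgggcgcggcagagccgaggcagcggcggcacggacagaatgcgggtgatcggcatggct
Herpud1, chr8:94386179-94386478, plus strand: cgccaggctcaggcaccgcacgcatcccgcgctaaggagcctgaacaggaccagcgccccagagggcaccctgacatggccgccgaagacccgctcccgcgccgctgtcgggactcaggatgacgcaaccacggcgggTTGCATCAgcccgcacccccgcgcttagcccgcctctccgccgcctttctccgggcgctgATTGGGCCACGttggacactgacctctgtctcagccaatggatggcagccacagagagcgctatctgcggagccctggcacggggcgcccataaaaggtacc
Trib3, chr2:152344011-152344310, minus strand: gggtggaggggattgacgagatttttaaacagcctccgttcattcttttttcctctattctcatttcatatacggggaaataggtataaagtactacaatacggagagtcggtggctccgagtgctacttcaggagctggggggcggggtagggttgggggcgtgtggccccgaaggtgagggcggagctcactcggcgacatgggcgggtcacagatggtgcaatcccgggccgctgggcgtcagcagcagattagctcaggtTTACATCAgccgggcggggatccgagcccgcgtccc

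ERSE was found in 8 of the 31 members with a window, and in 37 of all 27025 genes with a window (0.137%). The 8 were the chaperone and folding genes Hspa5, Hsp90b1 (with a pair of matches), Calr, Canx, Pdia6, Dnajc3 and Creld2, and the degradation gene Syvn1. Calr, Pdia6 and Creld2 were lower in thrombocytopenic libraries, the other 5 did not pass the test, and none was higher. ERSE-II was found in Dnajb11 and Herpud1, and in 12 of all genes with a window (0.0444%). Dnajb11 did not pass the test and Herpud1 was higher. CARE was found in Herpud1, Trib3, Chac1 and Asns, and in 1219 of all genes with a window (4.51%); Herpud1 and Trib3 were higher, and Chac1 and Asns did not pass the test. UPRE was found in no member and in 0.714% of all genes with a window. Among all tested genes with a window, 15 held an ERSE, of which none was higher and 4 (26.7%) were lower. Their median log2 fold change was -0.070. The 8 members are among these 15, and Calr, Pdia6 and Creld2 among the 4, so this is not a separate set of genes. Of all tested genes with a window, 23.5% were lower. Among 266 tested genes with a CARE, 60 (22.6%) were higher and 83 (31.2%) lower, against 23.2% and 23.5% of all 9441 tested genes with a window. A match is a description of these letters and not of a bound factor. The elements and the members were both chosen as known parts of this response. A higher share in members than in all genes is therefore not an independent result.

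ER chaperones and folding enzymes bind or oxidise new proteins, and their RNA is a classical readout of the unfolded protein response. Their summed level was 6829, 6468 and 6668 CPM in thrombocytopenic libraries, against 6861, 6976 and 7035 CPM in control libraries. The groups did not overlap in the sum, although thrombocytopenic replicate 1 came close to control replicate 1. The median log2 fold change of the 14 genes was -0.10, and their range was -0.32 to 0.00. Dnajb9, a co-chaperone also called ERdj4, had 21.1, 23.0 and 18.7 CPM in thrombocytopenic libraries, against 25.9, 24.7 and 28.0 CPM in control libraries. All 3 thrombocytopenic libraries were below all control libraries, and the log2 fold change of -0.32 (SE 0.062; edgeR adjusted p = 2.96e-05) corresponds to 20.9 ± 2.12 CPM against 26.2 ± 1.64 CPM (mean ± SD, n = 3 each; later means are given in the same way, thrombocytopenic against control). Pdia4, a protein disulfide isomerase, had 109, 101 and 102 CPM in thrombocytopenic libraries, against 124, 124 and 123 CPM in control libraries. The control libraries of Pdia4 lay within an SD of 0.596 CPM, and the fold change was -0.25 on the log2 scale (SE 0.033; edgeR adjusted p = 3.7e-09). Sdf2l1, a component of the ER chaperone complex, had 54.9, 56.6 and 55.4 CPM in thrombocytopenic libraries, against 61.0, 68.2 and 64.5 CPM in control libraries. It was lower by -0.22 (SE 0.040; edgeR adjusted p = 7.35e-06), with no overlap between the groups.

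Smaller shifts were seen in more of the folding genes. Creld2, an ER stress-inducible folding factor, averaged 40.3 ± 1.40 CPM against 44.3 ± 1.14 CPM (log2 fold change -0.14, SE 0.044). Hyou1, an ER relative of the HSP70 chaperones, averaged 207 ± 1.36 CPM against 227 ± 2.67 CPM (-0.13, SE 0.028). Pdia3, which works with the lectin chaperones on glycoproteins, was at 767 ± 25.1 CPM against 835 ± 24.2 CPM (-0.12, SE 0.026). In these 3 genes no thrombocytopenic library reached the lowest control library. Pdia6, another disulfide isomerase, was lower by -0.11 (SE 0.027), Manf, a secreted and ER-resident protective factor, by -0.09 (SE 0.033), and Calr, the lectin chaperone calreticulin, by -0.08 (SE 0.025). Calr overlapped between the groups, with 1526, 1418 and 1467 CPM in thrombocytopenic libraries and 1518, 1576 and 1565 CPM in control libraries. The calls of Calr, Creld2 and Manf did not hold in every setting: Calr was lost without thrombocytopenic replicate 2 (edgeR adjusted p = 0.109), Creld2 without thrombocytopenic replicate 3 (0.06) or control replicate 2 (0.0536), and Manf without thrombocytopenic replicate 3 (0.18), control replicate 1 (0.0837) or control replicate 3 (0.0565).

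The best known chaperone of the group did not pass the test. Hspa5, which encodes BiP, the HSP70 chaperone that holds the sensors inactive, had 1577, 1478 and 1544 CPM in thrombocytopenic libraries, against 1536, 1536 and 1556 CPM in control libraries. The groups overlapped fully, and the 95% interval of the log2 fold change was -0.06 to 0.04. Canx, the membrane-bound lectin chaperone calnexin, had an interval of -0.05 to 0.05. Hsp90b1, the ER form of HSP90 also called GRP94, stood at 940 ± 24.2 CPM against 972 ± 12.6 CPM, with an interval of -0.10 to 0.00 (edgeR adjusted p = 0.102). For Dnajb11 and Dnajc3, co-chaperones of BiP, the intervals were -0.10 to 0.02 and -0.13 to -0.01, with edgeR adjusted p = 0.238 and 0.061. Within the thrombocytopenic group replicate 1 was the highest library for 9 of the 14 genes and replicate 2 the lowest for 8. Within the control group replicate 1 was the lowest for 8 of 14.

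ER-associated degradation removes misfolded proteins from the ER, and 2 of its 4 members were higher with none lower. These 50% called stand near the 45.1% called of all genes tested. Of 25 further degradation genes, described below, 4 were higher and 5 lower. Herpud1, an adaptor of the degradation complex, had 103, 101 and 101 CPM in thrombocytopenic libraries, against 70.4, 69.9 and 71.7 CPM in control libraries. The groups were far apart relative to an SD of 1.01 and 0.927 CPM, and Herpud1 was 1.44-fold higher (log2 fold change 0.53, SE 0.034; edgeR adjusted p = 2.36e-19). Sel1l, the scaffold of the ubiquitin ligase HRD1, had 338, 343 and 352 CPM in thrombocytopenic libraries, against 309, 314 and 309 CPM in control libraries (0.15, SE 0.027; edgeR adjusted p = 6.02e-06). Again no library of a group entered the range of the other. Syvn1, which encodes HRD1 itself, was at 76.3 ± 3.13 CPM against 75.1 ± 1.61 CPM with an interval of -0.05 to 0.10. Edem1, which marks glycoproteins for disposal, was at 278 ± 1.85 CPM against 290 ± 1.47 CPM and missed the threshold (log2 fold change -0.06; edgeR adjusted p = 0.0697).

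**Figure D2:**
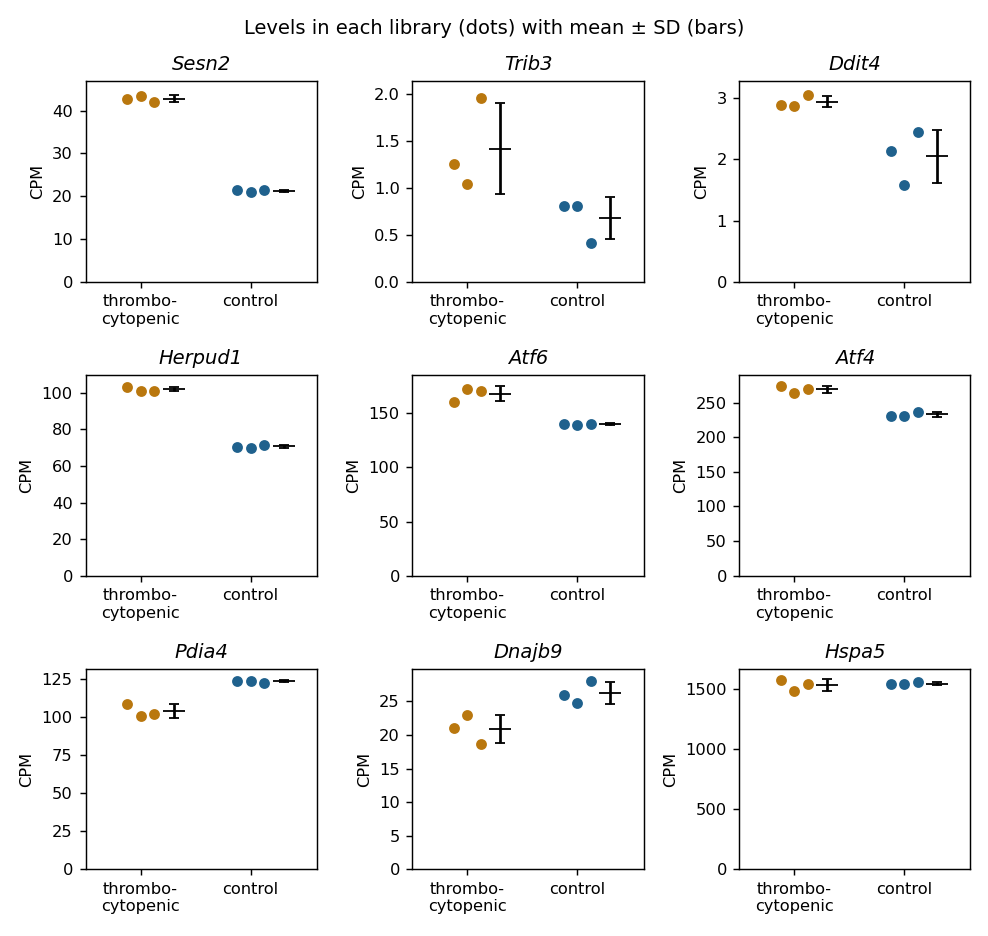
CPM of 9 members in each library (dots) with mean ± SD (bars), thrombocytopenic left and control right, every axis from 0. Sesn2 and Herpud1 separate by far more than their spread, Pdia4 and Dnajb9 lie lower in the thrombocytopenic group, and Hspa5 overlaps.

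Of the 6 sensors and transcription factors, 2 were higher and none lower, so 33.3% were called, against 45.1% of all genes tested. Atf6, the cleaved ER sensor, had 160, 172 and 171 CPM in thrombocytopenic libraries, against 140, 139 and 140 CPM in control libraries. All thrombocytopenic libraries were above the control libraries, whose SD was 0.904 CPM, and the log2 fold change was 0.26 (SE 0.031; edgeR adjusted p = 3.78e-10). Atf4, the main transcription factor of the integrated stress response, had 274, 264 and 269 CPM in thrombocytopenic libraries, against 231, 231 and 237 CPM in control libraries (0.21, SE 0.028; edgeR adjusted p = 6.96e-09). This concerns Atf4 RNA, whereas the response is known to act mainly on its translation. Xbp1 averaged 178 ± 2.14 CPM against 172 ± 3.25 CPM (log2 fold change 0.05, interval -0.01 to 0.11). The sensor genes Ern1 and Eif2ak3 had log2 fold changes of 0.08 (interval -0.01 to 0.17) and 0.06 (-0.07 to 0.18), and neither passed the test. Without thrombocytopenic replicate 1 Ern1 was called higher (0.12; edgeR adjusted p = 0.0469). Ddit3, which encodes the death-promoting factor CHOP, had 6.70, 8.92 and 8.56 CPM in thrombocytopenic libraries, against 7.96, 9.47 and 8.65 CPM in control libraries. Its groups overlapped (log2 fold change -0.13, interval -0.32 to 0.06).

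Genes that ATF4 and CHOP are known to induce, and that feed back on growth and translation, included the 2 members with the largest fold changes, Sesn2 and Trib3. Their summed level was 128, 127 and 128 CPM in thrombocytopenic libraries, against 98.8, 96.2 and 97.1 CPM in control libraries, and most of this difference was Sesn2. Sesn2 encodes sestrin 2, a leucine-sensing inhibitor of the growth kinase complex mTORC1 that is also known as a target of p53 and NRF2. It had 42.8, 43.5 and 42.1 CPM in thrombocytopenic libraries, against 21.4, 20.9 and 21.4 CPM in control libraries. The spread in either group was under 1 CPM, and Sesn2 was 2.02-fold higher (log2 fold change 1.01, SE 0.049; edgeR adjusted p = 1.7e-24). Trib3, a pseudokinase that restrains AKT and ATF4 signalling, had 1.26, 1.04 and 1.96 CPM in thrombocytopenic libraries, against 0.804, 0.806 and 0.418 CPM in control libraries. These rest on 47, 31 and 70 counts against 20, 29 and 12 counts. The groups did not overlap, but the libraries of a group differed by up to about the same amount as the groups, and the fold change of 1.07 (log2) had a wide SE of 0.273 (edgeR adjusted p = 0.00101). Without thrombocytopenic replicate 3 it was 0.77 (edgeR adjusted p = 0.0427).

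Ddit4, also called REDD1 and another mTORC1 inhibitor, had 2.89, 2.88 and 3.05 CPM in thrombocytopenic libraries, against 2.13, 1.58 and 2.44 CPM in control libraries. It was higher with no overlap (log2 fold change 0.54, SE 0.165; edgeR adjusted p = 0.00556), but without control replicate 2, its lowest library, it was at 0.36 with an edgeR adjusted p of 0.109. Ppp1r15a, which encodes GADD34, the phosphatase subunit that reverses eIF2 phosphorylation, had 80.4, 79.5 and 80.5 CPM in thrombocytopenic libraries, against 74.3, 72.5 and 72.5 CPM in control libraries. It was higher by 0.13 (SE 0.035; edgeR adjusted p = 0.00123), a shift small in fold but larger than the SDs of 0.553 CPM and 1.02 CPM. Chac1, a glutathione-degrading enzyme and a sensitive ATF4 target in other cells, had 10, 10 and 17 counts in thrombocytopenic libraries, against 5, 15 and 8 counts in control libraries. At this depth no difference was detectable for Chac1 (log2 fold change 0.21, interval -0.63 to 1.04).

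The synthesis enzymes that ATF4 is known to induce moved in both directions and by little. Psat1, an enzyme of serine synthesis, averaged 35.8 ± 2.18 CPM against 40.4 ± 1.76 CPM and was lower (-0.17 on the log2 scale, SE 0.048; edgeR adjusted p = 0.00326). Shmt2, which makes glycine from serine in mitochondria, had 32.2, 31.9 and 32.0 CPM in thrombocytopenic libraries, against 36.2, 36.1 and 35.7 CPM in control libraries. The groups of Shmt2 were tight and apart (log2 fold change -0.17, SE 0.047; edgeR adjusted p = 0.00219). Mthfd2, the next enzyme of mitochondrial folate metabolism, was higher, at 87.9, 84.4 and 85.3 CPM in thrombocytopenic and 80.8, 79.3 and 79.0 CPM in control libraries (0.11, SE 0.034; edgeR adjusted p = 0.00736). Phgdh, which opens the serine pathway, was at 4.95 ± 0.240 CPM against 5.68 ± 0.613 CPM and overlapped (interval -0.41 to 0.03). Asns, asparagine synthetase, was at 18.9 ± 0.710 CPM against 19.2 ± 0.849 CPM, with an interval of -0.14 to 0.10. The summed level of the 5 enzymes overlapped between the groups, at 176 to 181 CPM in thrombocytopenic and 178 to 186 CPM in control libraries.

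**Figure D3:**
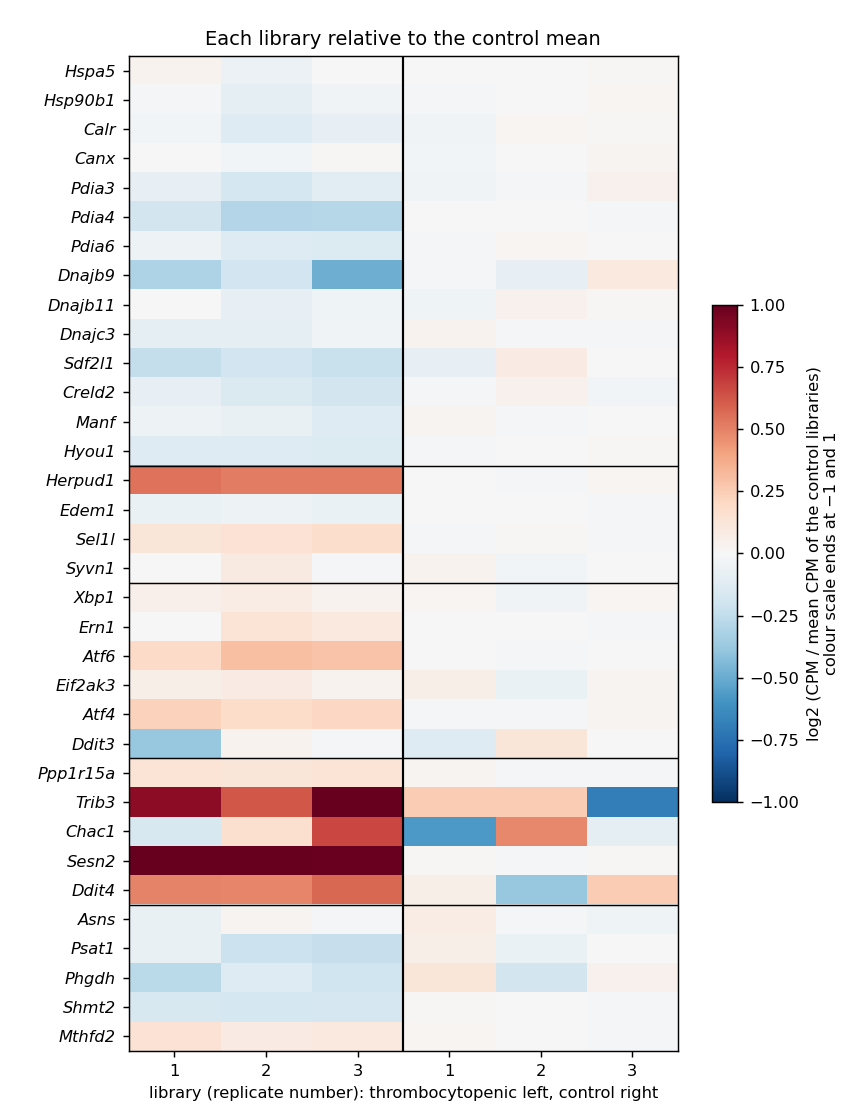
Each member's level in each library as log2 of its CPM over the control mean, thrombocytopenic libraries left of the line and control libraries right; colours saturate at -1 and 1. Herpud1 and Sesn2 are evenly high in the 3 thrombocytopenic libraries, while Trib3, Chac1 and Ddit3 vary between libraries of a group.

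Other genes of the same pathways were read from lists that the members are not part of. For these and all later lists, the shares of all genes tested were 45.1% called, 22.4% higher and 22.7% lower. Among 22 tested further ER folding genes, 9 were lower and 1 higher, with a median log2 fold change of -0.10. Tapbp, tapasin of the MHC class I loading complex, was at -0.24, Txndc5 at -0.22, and P4hb, the abundant disulfide isomerase PDI, at -0.20 (631 ± 15.1 CPM against 728 ± 5.95 CPM). In ER translocation and N-glycosylation, 12 of 29 were lower and 3 higher, with a median of -0.09. Sec61a1, the channel of the translocon, was at 232 ± 2.88 CPM against 264 ± 4.07 CPM (-0.18), Spcs2, a signal peptidase subunit, at -0.18, and Rpn1, a subunit of the glycosylating complex, at -0.16. The oxidase genes Ero1a and Ero1b, chosen after their values were seen, did not pass the test, at -0.02 and -0.10. Further degradation genes were split, with 4 of 25 higher and 5 lower and a median of 0.02. Edem2 was at -0.27, Ube2g2 at -0.24 and Herpud2 at -0.17, while Herpud1 was at 0.53.

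Cofactors of the sensors and ATF6-like factors were higher in 4 and lower in 6 of 18. Creb3l2, an ATF6-like factor of the secretory pathway, averaged 11.4 ± 0.424 CPM against 19.3 ± 1.25 CPM (log2 fold change -0.76, SE 0.068). Bax, a death effector that can bind IRE1, was at 0.30 and Nfe2l1, an ER-anchored factor that induces proteasome genes, at 0.22. Mbtps1 and Mbtps2, the proteases that cut both ATF6 and the sterol factor SREBP2, were not called, with 82.6 ± 0.763 CPM against 81.2 ± 2.59 CPM and 28.1 ± 0.739 CPM against 27.6 ± 0.994 CPM; they were chosen after their values were seen. Sterol response genes, by contrast, were higher in 11 of 13 with a median of 1.69, and Cyp51 and Hmgcs1 were at 2.28 and 1.72. Among the kinases, subunits and exchange factors of eIF2, 5 of 16 were higher and 3 lower. Eif2ak4, the amino acid sensor GCN2, averaged 8.95 ± 0.422 CPM against 11.5 ± 0.554 CPM (-0.37, SE 0.079). Eif2ak2, the double-stranded RNA sensor PKR, was at -0.11, and Nck1, an adaptor that binds eIF2, at 0.18.

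Further transcription factors and stress genes linked to ATF4 were higher in 8 and lower in 5 of 19. Cdkn1a, the cell cycle inhibitor p21, averaged 1909 ± 66.5 CPM against 1395 ± 14.1 CPM (log2 fold change 0.45, SE 0.024). Atf3, a stress factor downstream of ATF4, went the other way, at 334 ± 7.53 CPM against 430 ± 10.6 CPM (-0.37, SE 0.027), and Vegfa was at -2.63. Gadd45a at 1.13, Tnfrsf10b, a death receptor induced by CHOP, at 1.07 and Gdf15, a secreted stress factor, at -1.10 were chosen after their values were seen. Amino acid transporters were higher in 4 and lower in 4 of 10. Slc7a11, the cystine carrier, was at 0.63, and Slc7a2 and Slc38a1, carriers of arginine and glutamine, were at -0.61 and -0.43. Cytosolic aminoacyl-tRNA synthetases, which ATF4 is known to induce, were higher in 11 and lower in 3 of 20, with a median of 0.09. Iars was at 0.25 and Lars at 0.19, while Vars was at -0.37. Further amino acid synthesis genes were higher in 1 and lower in 1 of 9, with Mthfd1l at -0.17 and Gpt2 not past the threshold at -0.23; the call of Mthfd1l was lost without thrombocytopenic replicate 2 (edgeR adjusted p = 0.0738).

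Protein folding outside the ER showed no common direction. Cytosolic heat shock genes were higher in 6 and lower in 3 of 17, with Ahsa1, an activator of HSP90, at 0.21, Hsp90aa1 at 0.20 and Hsph1, an HSP110 chaperone, at -0.24. Mitochondrial chaperones and proteases were higher in 2 and lower in 2 of 11, with Yme1l1 at 0.29, Spg7 at -0.17 and Afg3l2 at -0.12. Hypoxia and glucocorticoid lists were read because Ddit4 is known to answer to both signals. Hypoxia genes were higher in 3 and lower in 7 of 16, with Vegfa at -2.63, Ndrg1 at 0.82 and P4ha1 at -0.35. Glucocorticoid-induced genes were higher in 3 and lower in 3 of 9, with Sgk1 at -2.38, Cebpd at 0.95 and Fkbp5 at -0.62.

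**Figure D4:**
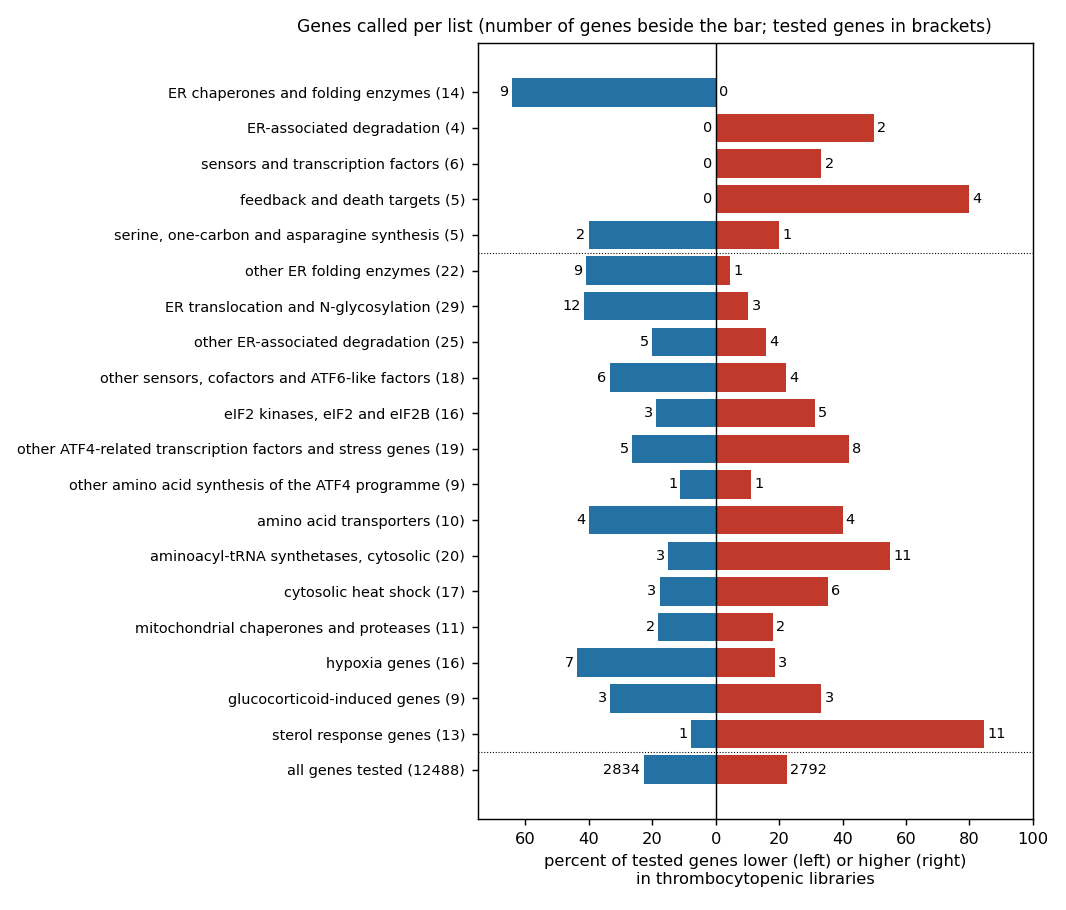
Percent of tested genes called lower (left) or higher (right) in thrombocytopenic libraries for the 5 roles of the members, 14 further lists and all genes tested, with the number of genes beside each bar. Both ER folding lists and the translocation list lie mostly left, and feedback and death targets, tRNA synthetases and sterol response genes mostly right.

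Plasma cells express ER folding genes strongly, and most of their defining markers were at or near 0. Mzb1 was at 0 in every library, Jchain and Igha were at 0 in every thrombocytopenic library, and Ighg1 was also at 0 in all 6 libraries. Of 11 plasma cell markers, 6 were tested, 2 higher and 2 lower, and their summed level was 169 to 177 CPM in thrombocytopenic and 162 to 164 CPM in control libraries. Prdm1, at 65.8 ± 2.36 CPM against 57.2 ± 2.96 CPM, and Tnfrsf13b, at 58.1 ± 0.521 CPM against 48.0 ± 2.48 CPM, were higher. Sdc1, at 47.1 ± 1.92 CPM against 56.0 ± 2.18 CPM, and Irf4, at 0.36 ± 0.139 CPM against 1.15 ± 0.3 CPM, were lower. Prdm1, Tnfrsf13b and Sdc1 carried most of the plasma cell sum. B cell markers were higher in 1 and lower in 1 of 3 tested, and summed to 14.3 to 16.5 CPM in thrombocytopenic and 16.1 to 18.0 CPM in control libraries. Ighm, which carried most of that sum, was higher at 12.7 ± 1.29 CPM against 10.4 ± 0.739 CPM, and Cd22 was lower. Dendritic cell markers were lower in 6 of 7 tested members and none was higher, and no marker was at 0 in a whole group. Their sums were 343 to 353 CPM in thrombocytopenic and 455 to 475 CPM in control libraries. Bst2 (mean 213 against 280 CPM) and Tcf4 (mean 117 against 153 CPM) carried most of that sum. Flt3, Zbtb46, Clec9a and Siglech had means of at most 1.71 CPM in either group. Progenitor markers were lower in 4 of 5 tested, with Meis1 higher, and summed to 5.48 to 7.07 CPM against 9.22 to 11.7 CPM, with Hoxa9 at 0 in thrombocytopenic libraries. Neutrophil markers summed to 490 to 496 CPM against 373 to 390 CPM, with 2 of 7 tested higher and 1 lower. Mmp8 (mean 323 against 227 CPM) and Csf3r (mean 159 against 141 CPM) were the 2 higher genes and carried most of that sum. S100a8, S100a9, Ltf and Camp were not called. Ly6g and Elane were at 0 in thrombocytopenic libraries and at no more than 0.0349 and 0.0556 CPM in control libraries. Basophil, eosinophil and mast cell markers summed to 0.469 to 0.509 CPM against 5.72 to 7.50 CPM, T and NK cell markers to 0.811 to 0.991 CPM against 1.09 to 1.88 CPM, and erythroid markers to 0 to 0.0559 CPM against 1.89 to 2.41 CPM. The part of these cells in the changes of the members was not tested.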

How the data were processed

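Polyadenylated RNA of cells labelled as blood monocytes was sequenced from 3 thrombocytopenic and 3 control libraries. The authors deposited unnormalised read counts, 1 whole number for each gene symbol and library. Per the labels' protocols, a TruSeq stranded kit was used, and the submitters' processing notes name Salmon 1.5.2, featureCounts of Subread 2.0.1, STAR 2.7.9a and fastp 0.23.1. For their roles, the genome build, the annotation and the strand setting the sources used here give nothing. In GENCODE M21, 11 of the 34 members share exon bases with another gene (Hsp90b1, Pdia3, Pdia4, Pdia6, Dnajb9, Manf, Syvn1, Eif2ak3, Ddit3, Ppp1r15a and Shmt2), 3 of them on the same strand, and are uncertain to that extent, as is Calr for its pseudogene Calr-ps.

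In R 4.3.3, genes were filtered with edgeR's filterByExpr (minimum count 10, minimum total 15), which left 12488 of 56832, and TMM factors of 0.9943 to 1.002 were applied. edgeR 4.0.16 (robust quasi-likelihood test, group as sole term, two-sided) was run on all of them, with Benjamini-Hochberg adjustment at 0.05. An SE is the size of the log2 fold change divided by the root of F, and intervals are at 95%. Means are ± SD over 3 libraries. No test was made on a list; lists are given by counts and medians, and levels of different genes are not compared. The code was tested on simulated data. Alternatives were other scalings and filters, DESeq2 1.42.0, limma-voom (limma 3.58.1), a stricter threshold, a replicate block and leaving out each library. Every member is given; of each further list the 3 genes with the smallest p are named, except for a few that are not reported here, and other genes were chosen after their values were seen. The members and lists were chosen with earlier results of these data known.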

Additional observations from a re-analysis of the deposited data

How the results depend on the processing

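The 15 alternatives left the direction of every called member as it was. Of 509 values of single members under them, 491 kept their side of the threshold, 9 lost a call and 9 gained one; 26 of 34 members kept theirs under all alternatives run. Members called higher numbered 8 to 10 and lower 10 to 14 across the alternatives, and chaperones and folding enzymes called lower 8 to 11. Upper quartile scaling, which set the median of all genes at -0.025, added Hsp90b1, Dnajc3 and Edem1 to the lower members (14 in all). Dnajc3 and Edem1 were also lower with library totals alone and with a filter at a mean of 1 CPM (13 in all under each), and Dnajc3 without thrombocytopenic replicate 3. DESeq2 lost Manf (adjusted p = 0.0679). No pairing by replicate number was visible: deviations of same-numbered libraries correlated at -0.042, -0.117 and -0.031. Those of differently numbered libraries correlated at -0.079 to 0.114. These values cannot show whether same-numbered libraries were handled together. With a replicate block, members called higher numbered 9 and members called lower 11, all genes called higher 2679 against 2792 without it, and all genes called lower 2723 against 2834. Genes with few counts limit the reading: Chac1 and Trib3 rest on 5 to 17 and 12 to 70 counts per library, and counts from PCR copies are not independent molecules.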

Other observations

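Because Sesn2 is known as a target of several stress factors, further lists were read after its value was seen, as a description. Of the other sestrin genes, Sesn1 was at 26.7 ± 0.956 CPM in thrombocytopenic and 17.3 ± 2.29 CPM in control libraries (log2 fold change 0.64, SE 0.064), while Sesn3 was at 11.4 ± 0.771 CPM against 15.4 ± 1.74 CPM (-0.43, SE 0.075). Of 20 genes known as targets of p53, 17 were higher, 1 was lower and 2 did not pass the test, with a median log2 fold change of 0.55, against 22.4% higher of all genes tested. The list is not independent of the values: Cdkn1a, Bax, Bbc3, Gadd45a, Tnfrsf10b and Sesn2 had already been seen, and Gdf15, also known as a p53 target and lower at -1.10, is not in it. Gadd45a was at 12.1 ± 0.414 CPM against 5.53 ± 0.531 CPM, Ccng1 at 367 ± 8.98 CPM against 246 ± 5.69 CPM, and Phlda3 at 26.4 ± 1.10 CPM against 15.5 ± 1.08 CPM. Mdm2, the ligase that p53 induces and that degrades it, was the lower gene, at 390 ± 5.17 CPM against 423 ± 2.57 CPM. Of 14 genes known as targets of NRF2, the factor of the oxidative stress response, 12 were higher, against 22.4% of all genes tested. Sqstm1 of this list was lower, and the median of the list was 0.25. Slc7a11 and Sesn2 of this list had already been seen, so it is not independent of the values either. Gsr, glutathione reductase, was at 402 ± 5.21 CPM against 237 ± 6.77 CPM, and Hmox1 was at 1567 ± 18.4 CPM against 1565 ± 12.9 CPM. Sesn2 itself is in both lists, Sesn1 is in the p53 list, and several of these genes answer to more than 1 factor.

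Other parts of the ER were also read after the fact. Genes of the vesicle coats between ER and Golgi were higher in 2 and lower in 1 of 21, with a median of 0.00, so 18 of them did not pass the test. The lower gene was Mcfd2, a cargo receptor subunit, at 78.3 ± 1.79 CPM against 103 ± 1.40 CPM, while its partner Lman1 missed the threshold with 127 ± 0.644 CPM against 133 ± 1.73 CPM. Genes of ER calcium were lower in 4 of 10 and higher in 1. Itpr2, a calcium release channel, was at 33.3 ± 1.29 CPM against 54.0 ± 1.64 CPM (-0.70, SE 0.044), and Atp2a3, a calcium pump, at 8.96 ± 0.430 CPM against 14.2 ± 0.436 CPM. Atp2a2, the other pump tested, was higher at 472 ± 2.50 CPM against 443 ± 2.17 CPM. Receptors for degradation of the ER by autophagy were lower in 4 of 8 and higher in 1, with Tex264 at -0.37, Retreg1 at -0.35, Retreg3 at -0.24, Rtn3 at -0.11 and Sec62 at 0.10.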
